A study of Mus musculus with 2 samples.

Results

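Potassium channel genes were followed through the H3K27me3 peaks of MEL cells, a mouse erythroleukaemia cell line. They were chosen by name alone, as protein-coding genes of the GENCODE mouse annotation on GRCm38 (mm10) whose symbol starts with Kcn, continues with letters of a subfamily and reaches a digit. This gave 93 genes of the 21911 protein-coding genes with a symbol. The series holds 1 group of 2 biological replicates, immunoprecipitated with an antibody to histone H3 trimethylated at lysine 27. The labels name no treatment or genotype, list age as unknown and sex as not collected, and give both replicates the same biosample record, so nothing states that they were separate cultures. The measurements are lists of peaks: 1 list called on each replicate, 1 called on both together (pooled), and a subset of the pooled list that the authors named replicated, which is the main list here.

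H3K27me3 is laid down by Polycomb repressive complex 2 and is found over genes that a cell lineage keeps silent, often as broad domains. Potassium channels are pores whose opening sets the resting voltage of a cell and shapes electrical signals, and most of their genes are known from neurons, muscle, heart and epithelia. The pore-forming subunits fall into voltage-gated channels, inward rectifiers, tandem-pore (leak) channels and channels opened by calcium, sodium or pH, and auxiliary subunits tune them. Red cells use a calcium-activated potassium channel, encoded by Kcnn4, to lose potassium and shrink.

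The replicated list covered 0.477% of the genome, the list of replicate 1 0.590% and that of replicate 2 0.877%, so a count from replicate 2 has more peaks behind it. Peaks come without read counts, which leaves the depth unknown and allows no counting interval. The absence of a peak does not establish that H3K27me3 is absent. Of 10 erythroid marker genes 1 (Slc4a1) had a replicated peak at its start, against 3 of 5 T and NK cell, 0 of 4 B cell and 3 of 5 myeloid markers. Over all protein-coding genes the share was 3.0%. Peaks do not measure expression, so these markers cannot show which cells were sampled.

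Few potassium channel genes carried the mark at their start. In 5 of 93 genes, or 5.38%, at least 1 bp within 1 kb of the outermost gene start lay in a replicated peak, and the same was true of 3.0% of all protein-coding genes. In the pooled list the count was 6 of 93 against 4.48% of all genes, in replicate 1 it was 5 against 4.46% and in replicate 2 it was 8 against 6.28%. These shares lie close to those of all genes, so the count is not a result about the family. The 5 genes were Kcne2, Kcnj9, Kcnj10, Kcnip3 and Kcnh4, and 4 of the 93 genes were marked at the start in both replicates' own lists (4.30%, against 3.14% of all genes).

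Kcne2 had the densest start. It encodes a small membrane protein that modifies voltage-gated channels. Replicated peaks covered 1015 of the bases within 1 kb of its start, with 687 and 1173 in the own lists of replicates 1 and 2 and 1276 in the pooled list. It was the 1 gene of the 93 with at least 500 bases covered there. The inward rectifier gene Kcnj10, best known from glia, had 368 bases, with 197 in replicate 1 and 339 in replicate 2. Its neighbour Kcnj9, which encodes a subunit of the channels opened by G proteins, had 278 bases, with 279 and 753. Both replicates therefore had a peak at these 3 starts, and at each of them replicate 2 covered more bases.

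At Kcnip3 and Kcnh4 replicate 2 covered fewer bases than replicate 1. Kcnip3 encodes a calcium-binding partner of voltage-gated channels. It had 319 bases, with 330 in replicate 1 and 140 in replicate 2, and its replicated peak lay from -913 to -595 bp relative to the outermost start. No start of a protein-coding transcript of Kcnip3 had a replicated peak within 1 kb. Kcnh4, a voltage-gated channel gene of the brain, had 303 bases in the replicated list and 323 in replicate 1, and its start held 0 bases of replicate 2 peaks. A further 4 genes had a peak at the start in replicate 2 without one in the replicated list: Kcne1 (342 bases), Kcns1 (148), Kcne1l (144) and Kcnk3 (3). None of these 4 had one in replicate 1.

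**Figure D1:**
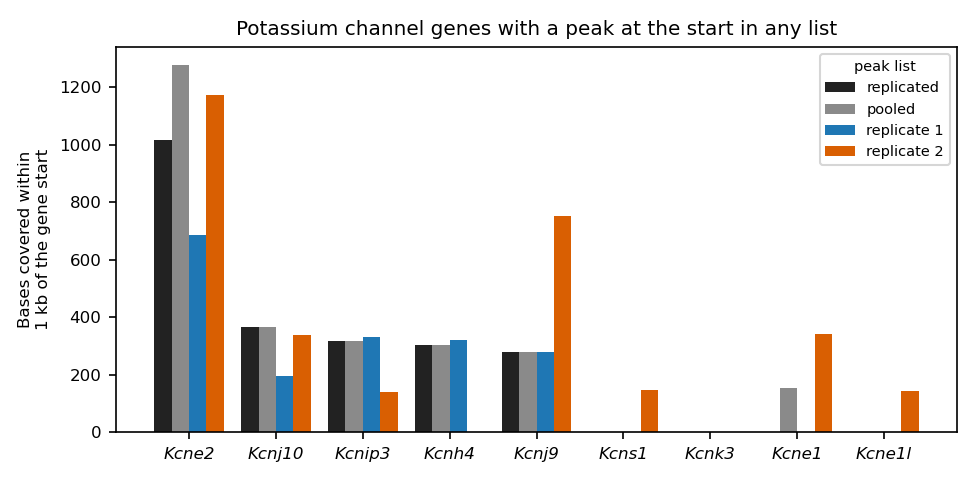
Bases within 1 kb of the gene start covered by peaks (y axis), for the 9 potassium channel genes with a peak there in any of the 4 lists (x axis, 1 bar per list). Kcne2 reaches 687 to 1276 bases in all 4 lists, Kcnh4 has no bar for replicate 2, and the 3 bases of Kcnk3 in replicate 2 are too few to see.

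The replicated peaks at these 5 starts were weak by the authors' q-values, as were most peaks of the list. Of all replicated peaks 10.9% had a −log10 q of 2 or more. The authors' −log10 q of the replicated peaks within 1 kb of the 5 starts ran from 0.114 to 0.980, and with peaks of −log10 q of at least 2 the count fell to 0 of 93, against 0.589% of all genes. In the own list of replicate 1, peaks at Kcnj10 and Kcnh4 reached 2.69 and 2.40. The promoter sequences show where the peaks meet the promoter itself, taken as 250 bases before to 50 after the RefSeq start (GRCm38.p6). Of the 93 genes 68 were matched by symbol to such a window, and the windows of these 3 genes overlapped a replicated peak. Capitals mark the bases inside a replicated peak.

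Kcne2, chr16:92292139-92292438, plus strand: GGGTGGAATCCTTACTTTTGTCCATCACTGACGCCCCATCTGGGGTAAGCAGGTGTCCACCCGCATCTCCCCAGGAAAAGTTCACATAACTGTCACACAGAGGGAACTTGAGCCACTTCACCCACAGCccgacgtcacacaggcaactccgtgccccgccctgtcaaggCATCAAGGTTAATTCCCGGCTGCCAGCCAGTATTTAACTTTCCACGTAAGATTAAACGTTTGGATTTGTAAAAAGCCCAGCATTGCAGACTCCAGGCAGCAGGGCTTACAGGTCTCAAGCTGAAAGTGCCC

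Kcnj9, chr1:172329273-172329572, minus strand: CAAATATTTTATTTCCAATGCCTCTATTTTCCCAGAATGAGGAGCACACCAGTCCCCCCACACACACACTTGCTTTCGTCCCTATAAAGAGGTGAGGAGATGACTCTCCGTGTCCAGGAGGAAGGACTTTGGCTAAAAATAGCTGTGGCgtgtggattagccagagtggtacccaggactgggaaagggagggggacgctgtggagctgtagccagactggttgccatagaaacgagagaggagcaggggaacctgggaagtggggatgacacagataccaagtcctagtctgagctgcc

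Kcnj12, chr11:61065554-61065853, plus strand: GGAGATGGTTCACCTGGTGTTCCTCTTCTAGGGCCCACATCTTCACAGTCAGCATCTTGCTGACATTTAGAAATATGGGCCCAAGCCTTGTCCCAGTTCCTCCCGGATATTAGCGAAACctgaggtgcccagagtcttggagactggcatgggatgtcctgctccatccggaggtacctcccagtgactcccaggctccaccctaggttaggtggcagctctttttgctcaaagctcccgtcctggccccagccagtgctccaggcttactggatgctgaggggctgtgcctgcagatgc

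At Kcne2 259 of the 300 bases lay in replicated peaks, on both sides of the start. At Kcnj9 149 bases did, all upstream. At Kcnj12 119 bases were covered, again upstream. That window lies at the RefSeq start of Kcnj12, 43240 bp inside the GENCODE gene, whose outermost start had no peak in any list. Within 1 kb of this internal start replicated peaks covered 527 bases, those of replicate 1 278 and those of replicate 2 807. Each promoter held the dinucleotide CG (read the same on both strands): 9 in Kcne2, 5 in Kcnj9 and 4 in Kcnj12. Of all 32851 RefSeq promoter windows 94.6% held at least 1 CG, with a median of 7, and the median over the 68 matched potassium channel genes was 10. The 17 matched genes with a replicated peak in the body had a median of 11 and the 51 without had 10.

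A pair of inward rectifier genes and a pair of auxiliary genes had peaks between them. No other neighbouring genes of the family were examined in this way, and Kcnj9, Kcnj10 and Kcne2 are among the genes with a replicated start peak. The replicated peaks upstream of the starts of Kcnj9 and Kcnj10, already counted there, lie between these genes. Kcnj9 and Kcnj10 are transcribed away from each other on chromosome 1, and the 11891 bp between them (172329319 to 172341209) hold no other protein-coding gene. Replicated peaks covered 20.9% of this stretch, with 14.1% in replicate 1 and 23.5% in replicate 2, against 0.353% of chromosome 1. Joined within 3 kb, these peaks formed 1 domain of 12330 bp that began just upstream of the start of Kcnj9 and ended 543 bp inside Kcnj10. Kcne2 and Kcne1, which modifies the channel of Kcnq1, point towards each other on chromosome 16. Of the 47852 bp between them replicated peaks covered 4.23%, with 3.41% in replicate 1 and 6.19% in replicate 2, against 0.429% of chromosome 16. That stretch also holds Smim11 and Fam243.

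**Figure D2:**
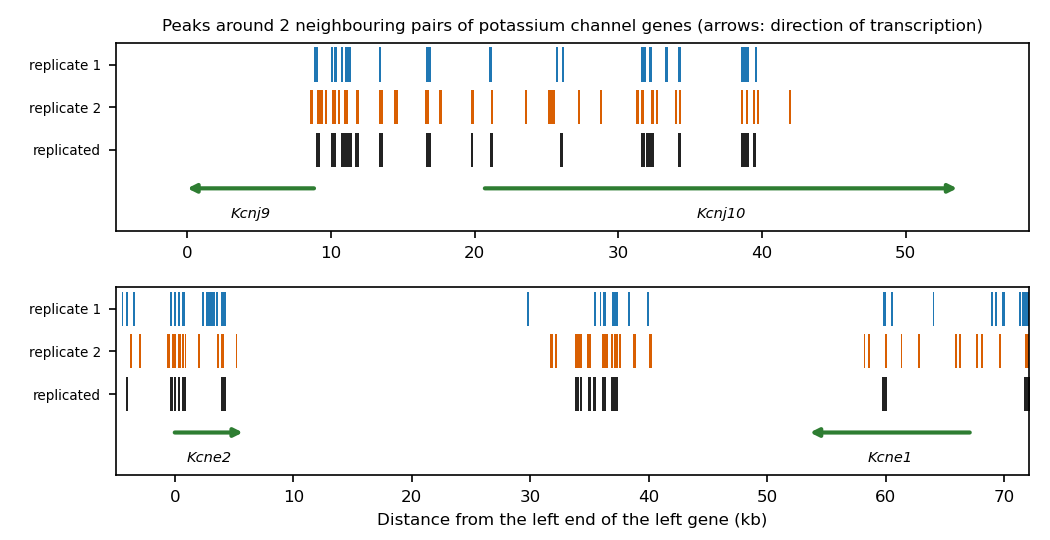
Peaks around Kcnj9 and Kcnj10 (top) and Kcne2 and Kcne1 (bottom), plotted by distance in kb from the left end of the left gene, with 1 row for each replicate's own list and the replicated list and green arrows for the genes. In the top panel peaks of every row lie in the 11891 bp between the starts, and the body of Kcnj9 holds none in the replicated row.

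The bodies of the genes showed more. A replicated peak lay in the body of 26 of the 93 genes, or 28.0%, and in 11.5% of all protein-coding genes. The pooled list gave 31 of 93 against 15.0%, replicate 1 gave 35 against 16.4% and replicate 2 gave 39 against 20.4%. In both replicates' own lists 34 of the 93 bodies held a peak, or 36.6%, against 14.8% of all genes. Longer genes hold more peaks, and potassium channel genes are long, with a median of 32016 bp against 17433 bp. At the share of all genes in the same of 4 length classes, 13.2 of the 93 would have held a replicated peak, and with 10 finer classes 13.3.

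The larger shares lay in genes of 10 kb or more. Among genes of 10 to 50 kb 9 of 35 had a replicated peak in the body (25.7%, against 12.2% of all genes of that length). Among those of 50 to 200 kb 8 of 18 did (44.4% against 19.8%), and among those of 200 kb and over 8 of 18 (44.4% against 24.0%). Among genes under 10 kb it was 1 of 22 (4.55% against 4.66%), Kcne2. In the replicates' own lists each length class had a larger share among potassium channel genes than among all genes, also under 10 kb, where 5 of 22 had a peak in replicate 1 and 4 of 22 in replicate 2. No test was attached to these counts, since the replicates form 1 group and neighbouring bases of a domain are not independent.

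**Figure D3:**
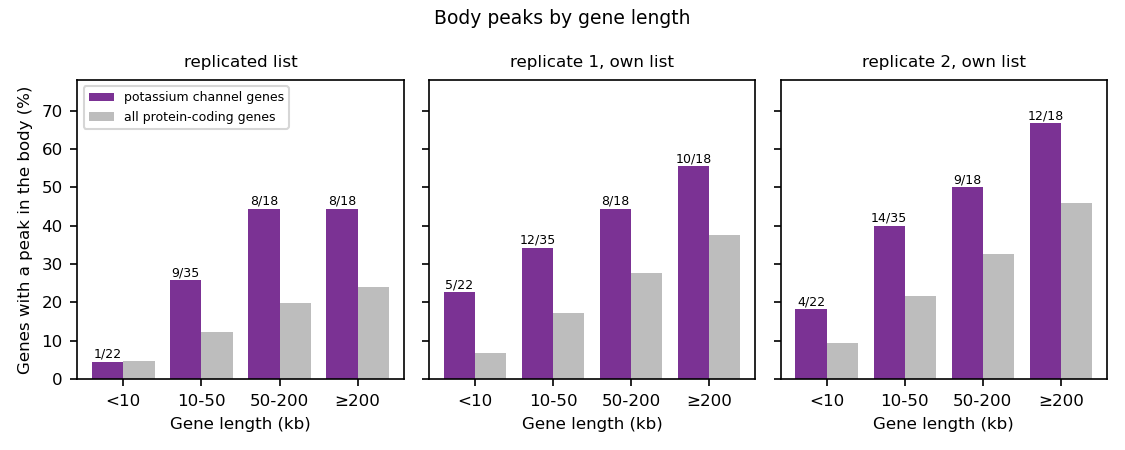
Share of genes with a peak in the body (y axis, %) by gene length in kb (x axis), for potassium channel genes (purple, with counts) and all protein-coding genes (grey), in the replicated list and each replicate's own list. In the replicated list 8 of 18 genes in each of the 2 longest classes had a peak, against 19.8% and 24.0% of all genes.

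Measured in bases, the mark was concentrated in a few genes. Replicated peaks covered 97896 bases of the 93 bodies, or 0.942%, against 0.524% over all protein-coding genes, and the median gene of either set had 0 bases covered. The share was 1.09% in replicate 1 and 1.67% in replicate 2, or 1.38% ± 0.405 (SD, n = 2), against 0.633% and 0.943% of all bodies. If each gene were covered like the genes of its chromosome the total would be 0.526%, and like genes of its length class 0.387%. Kcnn3 and Kcnip1 held 48.9% of the covered bases and the 5 most covered genes 69.6%. Without Kcnn3 the share was 0.714%. Without both Kcnn3 and Kcnip1, a choice made after the values were seen, it was 0.506%. That is below the 0.524% of all genes, from which no gene was left out, and above the 0.387% of the length classes, computed for all 93 genes. Among the genes with any replicated peak in the body the median share covered was 2.12% for potassium channels and 2.78% for all genes.

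Kcnn3 was the most covered. It encodes a small-conductance channel opened by calcium, which follows electrical spikes in neurons. Its body of 154969 bp on chromosome 3 (89520164 to 89675132) held 76 replicated peaks that covered 24835 bases, with 23830 in replicate 1 and 33480 in replicate 2. That is 16.0% of the gene in the replicated list, and 15.4% and 21.6% in the replicates. The first peak lay 1114 bp after the start, just outside the start window. Joined within 3 kb, the peaks formed 4 domains of at least 5 kb. Besides the longest, of 43298 bp, they measured 5763, 15668 and 18380 bp, and the last of them ran past the end of the gene. By covered bases Kcnn3 ranked 17 of all 21911 genes, and by the share of the body covered it ranked 263.

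Kcnip1 came next, with 23050 bases. It encodes a calcium-binding protein that joins the voltage-gated channels of the Kcnd subfamily. Replicate 1 covered 28095 bases of it and replicate 2 28977, which is 7.72% and 7.96% of the 363814 bp gene on chromosome 11 (33629339 to 33993152). Of the chromosomes with a potassium channel gene, chromosome 11 was the most covered, at 1.86% of its length. The 58 replicated peaks lay between 135067 and 299734 bp from the start, with none before or after, and the gene Kcnmb1, which lies within Kcnip1, held no peak in any list. The 5 domains of Kcnip1 of at least 5 kb measured between 5039 and 8765 bp, which ranked 1807 and 666 by length among 14456 domains in the genome. The densest was covered over 78.7% (74.4% in replicate 1 and 71.3% in replicate 2). Protein-coding transcripts start inside the gene at 149567, 149625 and 149691 bp, between the densest domain and the next of at least 5 kb. Within 1 kb of each of these starts the replicated list and replicate 1 covered 0 bases and replicate 2 197.

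Kcnk3 had the largest share of its body covered in the replicated, pooled and replicate 2 lists, while in replicate 1 Kcne2 was higher, at 34.8%. It encodes a leak channel that acid closes. Replicated peaks covered 8994 of 37102 bp (chromosome 5, 30588170 to 30625271), or 24.2%, with 20.7% in replicate 1 and 25.7% in replicate 2. They began 4141 bp after the start. Kcnj12, an inward rectifier of heart and muscle, had 5299 bases, or 10.9%, with 12.1% and 15.2% in the replicates. In Kcnn3, Kcnip1, Kcnk3 and Kcnj12 the outermost start window was free of replicated peaks.

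**Figure D4:**
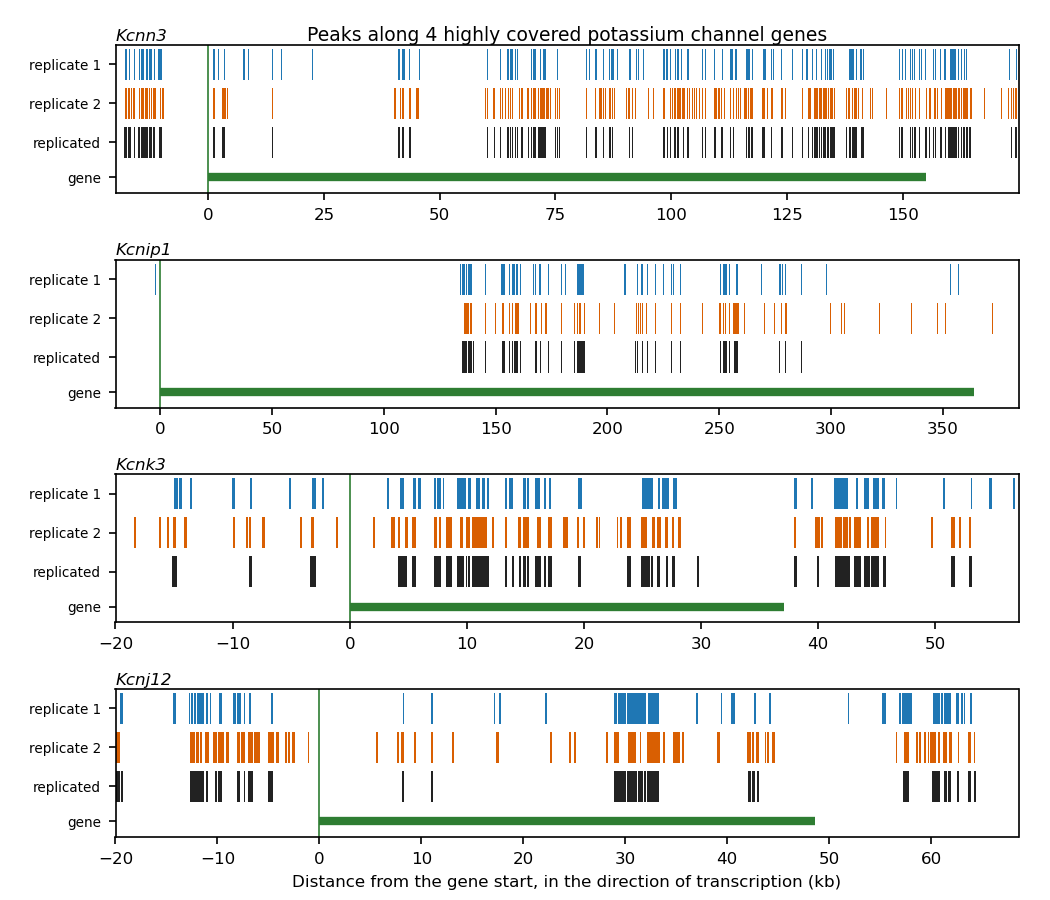
Peaks along 4 of the most covered potassium channel genes, in kb from the gene start in the direction of transcription (x axis), with 1 row for each replicate's own list and the replicated list, and the gene as a green bar. The replicated peaks of Kcnip1 begin 135067 bp after the start, and those of Kcnn3, Kcnk3 and Kcnj12 run on outside the gene.

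The surroundings of these genes differed. Within 20 kb after the end of Kcnn3 replicated peaks covered 31.1%, and in the 20 kb before its start 24.0%, both more than the gene itself. The replicates gave 18.5% and 37.1% after the gene and 17.8% and 26.8% before it. Kcnj12 had 21.1% before and 13.5% after, and Kcnk3 5.78% before and 22.2% after. Around Kcnip1 it was 0% before, with 0.93% in replicate 1, and 1.03% after. The 20 kb on both sides of Kcnip4 and Kcnh7 held no peak in the replicated list or either replicate's own list. Peaks thus ran on outside Kcnn3, Kcnj12 and Kcnk3 and were sparse or not found next to Kcnip1, Kcnip4 and Kcnh7.

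The strongest replicated peak, by −log10 q, of Kcnip1, Kcnj12, Kcnn3 and Kcnk3 is shown by its sequence, to let the letters under the mark be compared. Each window is 120 bases centred on the authors' summit, lies in an intron, is given on the strand of the gene (mm10, RefSeq genome sequence), and has the dinucleotide CG in capitals.

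Kcnip1, chr11:33854287-33854406, minus strand: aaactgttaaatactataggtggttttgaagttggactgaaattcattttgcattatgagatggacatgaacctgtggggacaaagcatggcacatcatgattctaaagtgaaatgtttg

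Kcnj12, chr11:61054925-61055044, plus strand: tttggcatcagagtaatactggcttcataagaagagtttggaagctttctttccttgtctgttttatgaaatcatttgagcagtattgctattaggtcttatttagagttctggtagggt

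Kcnn3, chr3:89654329-89654448, plus strand: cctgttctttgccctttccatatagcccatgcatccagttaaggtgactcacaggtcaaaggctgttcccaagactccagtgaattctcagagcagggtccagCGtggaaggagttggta

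Kcnk3, chr5:30604272-30604391, plus strand: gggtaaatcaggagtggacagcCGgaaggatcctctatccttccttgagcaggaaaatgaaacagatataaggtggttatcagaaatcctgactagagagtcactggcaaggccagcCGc

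The windows of Kcnip1 and Kcnj12 held no CG, and each was 35.8% G or C. Kcnn3's held 1 at 50.8% and Kcnk3's 2 at 49.2%. Of the windows around all 38298 replicated peaks 59.5% held a CG, with a median of 1. The −log10 q of these peaks was 4.34 at Kcnip1, 3.77 at Kcnj12, 2.79 at Kcnn3 and 2.52 at Kcnk3. Over all covered bases of potassium channel bodies G and C made up 46.0%, against 42.3% of the whole bodies and 42.9% of all replicated peaks. Repeats masked in the reference made up 14.1% of these covered bases, 25.2% of the whole bodies and 19.6% of all replicated peaks. Exons of protein-coding transcripts made up 1.19% of the covered bases and 4.13% of the bodies, while over all genes they made up 6.80% and 7.09%. Since 5 genes hold 69.6% of the covered bases, these shares describe mainly those genes.

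Most genes with a replicated peak in the body had none at the start. Of the 26 genes with a replicated peak in the body 3 also had one at the start (Kcne2, Kcnj10 and Kcnip3), or 11.5%, against 528 of the 2509 such genes in the genome (21.04%). This comparison rests on 3 genes and was not made within length classes. Among all 93 genes the share with a start peak was lower, at 5.38%. The start window takes in the first 1 kb of the body, so 1 peak can count in both. That was so at Kcne2 and Kcnj10. In 20 of the 26 the nearest body peak lay over 5 kb from the start, and the median distance was 10482 bp. These distances were not computed over all genes, so they are no result about the family. With each body scaled to 10 equal parts, replicated peaks covered 0.244% of the first and 1.94% of the fifth, the highest. All genes had 0.601% and 0.518% there. The fifth holds parts of domains of Kcnn3 and Kcnip1.

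Voltage-gated pore-forming subunits were the largest class and the least covered. A replicated peak lay in the body of 11 of the 40, against 11.5% of all genes. Of their bases 0.354% were covered (0.505% in replicate 1 and 0.874% in replicate 2), below the values of all genes in the same lists. This comparison, and the values of the other classes, took no account of gene length. All protein-coding genes of 200 kb and over had 0.281% of bases covered in the replicated list. Kcnh6, a relative of the heart channel Kcnh2, had 2394 bases or 9.06% (7.42% and 15.7% in the replicates). Kcnh7, another relative, had 2908 bases in 490874 bp, or 0.592%. Kcnh2 itself had no peak in any list. Kcnq5 had 417 bases, and Kcnq3, of 300256 bp, held no peak in any list. Further covered members were Kcnc4 (333 bases), Kcnd2 (205), Kcng2 (150) and Kcnh3 (223). Each of these rested on 1 replicated peak, with a −log10 q of 0.980 at Kcnc4 and Kcnd2 and 0.114 at Kcng2 and Kcnh3.

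Kcnq1, a channel of heart and inner ear, lies in an imprinted cluster, and the non-coding RNA Kcnq1ot1 runs antisense within it. Replicated peaks covered 2584 of its 320681 bp, with 3251 in replicate 1 and 6462 in replicate 2. All 2584 bases lay outside Kcnq1ot1 (chromosome 7, 143203458 to 143296549), where replicate 1 had 0 bases and replicate 2 281. The 8 genes of the Kcna subfamily, among them Kcna3, the voltage-gated channel of lymphocytes, held no peak in any of the 4 lists. They total 81599 bp. With the 4 Kcnmb genes (384965 bp), Kcnf1 and the 2 Kcnv genes they were the subfamilies with no body peak in any list.

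Inward rectifiers had 4 of 15 genes with a replicated body peak, against 11.5% of all genes. Of their bases 1.31% were covered (1.52% in replicate 1 and 2.02% in replicate 2). After Kcnj12 came Kcnj10 with 2197 bases (6.68%) and Kcnj4, a channel of brain and heart, with 1406 bases or 6.53% (9.54% and 8.44% in the replicates). Kcnj1, the channel that secretes potassium in the kidney, had 563 bases. Of the 14 tandem-pore genes 2 had a replicated body peak, Kcnk3 and Kcnk13, a count near the 11.5% of all genes and no result about the class. Kcnk13, a leak channel of microglia, had 2868 bases or 2.92% (3.56% and 7.80%). The class was covered over 1.67%, and without Kcnk3 over 0.427%.

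Of the 8 genes of channels opened by calcium, sodium or pH, Kcnn3, Kcnma1 and Kcnu1 had a replicated body peak, against 11.5% of all genes. Kcnma1, the large-conductance channel, had 1568 of 725061 bp covered, with 3104 in replicate 1 and 10482 in replicate 2, and Kcnu1, the channel of sperm, 446. Without Kcnn3 the class fell from 1.46% to 0.119% covered. Kcnn4, the red cell channel, had no peak in any list, and the nearest replicated peak lay 85313 bp from its start. Its relatives Kcnn1 and Kcnn2 had none in any list either. The Kcnn subfamily, at 4.07%, thus rests on Kcnn3 alone.

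Auxiliary subunits had 6 of 16 genes with a replicated body peak, against 11.5% of all genes. Of their bases 1.39% were covered (1.67% in replicate 1 and 2.24% in replicate 2), or 0.491% without Kcnip1. Of the 4 Kcnip genes 3 held replicated peaks: after Kcnip1, Kcnip3 had 3028 bases (4.62%) and Kcnip4 2966 of 1135406 bp (0.261%). Kcnip2 had no peak in any list. Their pore-forming partners in the Kcnd subfamily had 205 bases in Kcnd2 and none in Kcnd1 or Kcnd3, although Kcnd3 had 1755 bases in replicate 1 and 3222 in replicate 2. Kcnab1, a cytoplasmic subunit of voltage-gated channels, had 2379 bases or 0.885%. The Kcne subfamily had the highest share, 4.56%, over only 32410 bp in 5 genes. Kcne2 had 1035 bases or 18.03% of its body (34.8% in replicate 1 and 22.7% in replicate 2) and Kcne1 442. The bases of Kcne2 include those of peaks already counted at its start. Neither gene had a replicated body peak with a −log10 q of at least 2.

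**Figure D5:**
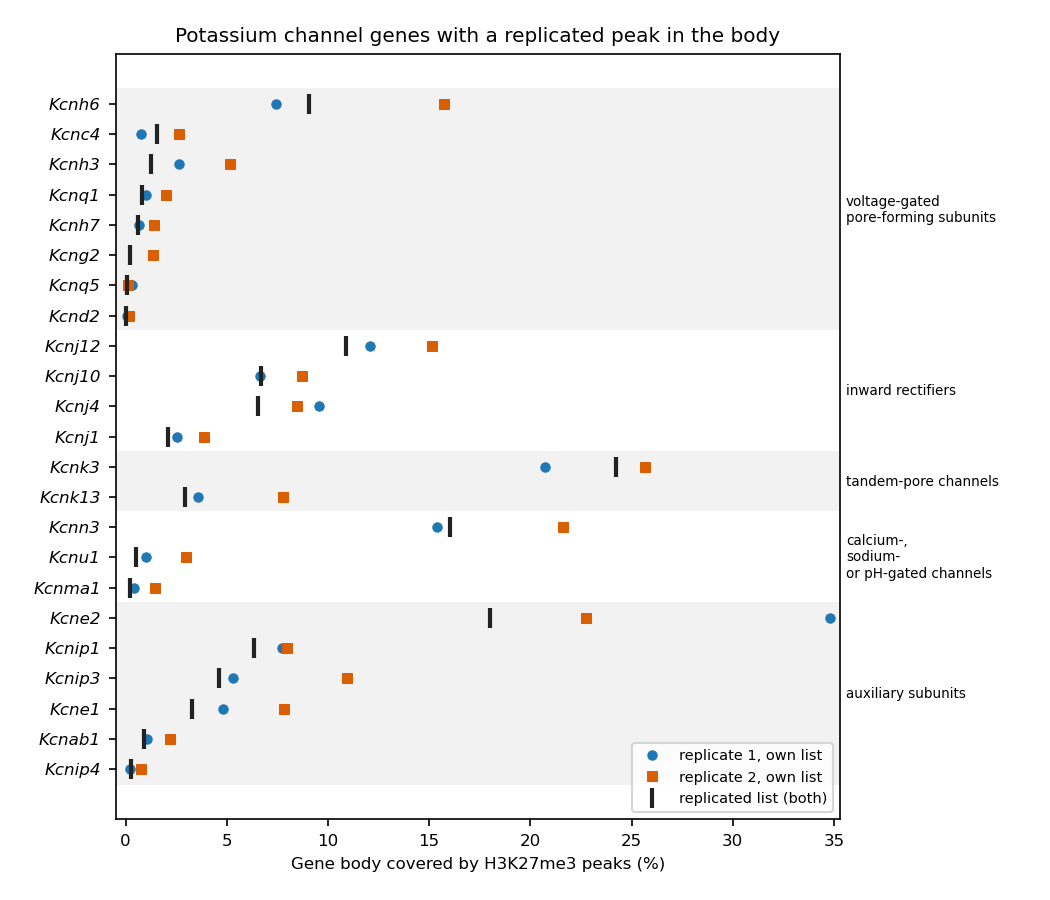
Share of the gene body covered by peaks (x axis, %) for 23 of the 26 potassium channel genes with a replicated peak in the body, grouped by class, in the list of replicate 1 (circles), of replicate 2 (squares) and the replicated list (bars). Kcnk3 is highest in the replicated list at 24.2%, and replicate 2 lies above replicate 1 in most genes but not in Kcne2, Kcnj4 and Kcnq5.

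The replicates ordered the genes alike. Across the 40 genes with a body peak in either replicate's own list, the covered share of the body had a Spearman's rho of 0.892 and a Pearson's r of 0.883 between replicates. This is a description over genes that share both libraries and 1 control alignment. Replicate 2 had more covered bases in 35 of the 40 and replicate 1 in 5. Base by base the lists met less: 37.0% of replicate 1's bases in the bodies also lay in replicate 2's peaks, and 24.3% of replicate 2's in replicate 1's, against 34.8% and 23.4% over all genes. At Kcnn3 11633 bases lay in both lists, at Kcnip1 12594, and at Kcnc4 0, although each replicate had peaks in Kcnc4. Of the 295 replicated peaks in the bodies 11.9% had a −log10 q of 2 or more, against 10.9% of all replicated peaks.

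No peak of any list touched the body or the start of 52 of the 93 genes, or 55.9%, against 76.8% of all protein-coding genes. They included 22 of 40 voltage-gated subunits, 7 of 15 inward rectifiers, 10 of 14 tandem-pore channels, 4 of 8 channels opened by calcium, sodium or pH, and 9 of 16 auxiliary subunits. Among the 18 genes of 200 kb and over 6 had none: Kcnb2, Kcnn2, Kcnh8, Kcnt2, Kcnq3 and Kcnmb2. This is 33.3%, against 51.4% of the 997 protein-coding genes of that length.

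Of 17 related genes with other symbols, such as the sulfonylurea receptors Abcc8 and Abcc9, the channel partners Dpp6 and Dpp10 and the Hcn pacemaker channels, 0 had a replicated peak at the start or in the body. Over all genes the shares were 3.0% and 11.5%. The replicates' own lists held some peaks. In the body Abcc9 had 436 bases in replicate 1 and 557 in replicate 2, Hcn4 342 and 280, and Lrrc55 140 and 260. Abcc8 had 146 and Hcn2 162 in replicate 2 alone, where Tmem38b had 145 bases at the start. Voltage-gated calcium and sodium channel genes, the other large channel families, had a replicated body peak in 19 of 40 genes (47.5%) and 1.20% of bases covered, with 1 of 40 marked at the start. They are longer, with a median of 104706 bp. The difference from potassium channel genes was not tested, and body peaks are not shown to be particular to either family.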

How the data were processed

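H3K27me3 chromatin immunoprecipitation and sequencing in 2 replicates of MEL cells was read from 4 mm10 peak lists. Per the labels and the deposited text descriptions, each replicate's peaks were called against 1 shared control alignment, the pooled list on both alignments, and the replicated list derived from those 3. Not given in the sources used here: caller, aligner and the rule for keeping peaks. The authors' deposited signal value is a score of unstated definition and was used only to rank peaks. The deposited −log10 q-value of each peak is the authors' and served to filter and rank peaks; their −log10 p-value was not used. The lists hold no reads, so depth is unknown. Positions are 1-based on GRCm38. No peak lay past a chromosome end. The mm9 list was not used here.

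Genes came from GENCODE mouse release 21, with the longest gene kept for a repeated symbol. Coverage is the union of peaks on chromosomes 1 to 19, X and Y, computed with Python 3.11.15 and numpy 2.4.6. The coverage code was tested on simulated data. Sequence was read with pysam 0.24.0. No test was run, because there is 1 group.

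The members and lists were chosen with earlier results of these data known. Named genes are those with a replicated start peak, the 10 with the most covered bases and the 10 with the highest covered share, the top gene of each subfamily, and Kcnn4, Kcna3, Kcnq1 and Kcnh2. Some genes that the rule names are not reported here. Other genes were named after their values were seen. Alternatives were each replicate's list, the pooled list, stricter peaks, other start windows, joined peaks and left-out genes.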

Additional observations from a re-analysis of the deposited data

How the results depend on the processing

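No paired analysis was possible because the 2 replicates form 1 group. The count of 5 potassium channel genes with a start peak was small and moved with most choices: it was 0 with a −log10 q of at least 2, 2 with the upper 50% of peaks by signal value, 9 with windows of 2.5 kb, 1 when 500 bp had to be covered, and 5 to 8 when either replicate was left out. The corresponding shares of all genes were 0.589%, 1.94%, 5.97% and 0.831% in the first 4, and 4.46% to 6.28% in the last. Leaving out a replicate meant taking the other replicate's own list. Those lists hold 70901 and 106995 peaks, against 38298 in the replicated list. The count of 26 with a body peak was 10 with a −log10 q of at least 2 (3.35% of all genes) and 17 when 1000 bp had to be covered (5.25%). It was 35 to 39 when either replicate was left out (16.4% to 20.4%). The covered share of the bodies was 0.192% with a −log10 q of at least 2 (0.0990% over all genes) and 2.47% with peaks joined within 3 kb (1.26%). It was 1.09% to 1.67% when either replicate was left out (0.633% to 0.943%) and 0.682% outside chromosome 11 (0.464%). Without Kcnn3 and Kcnip1, an alternative chosen after seeing the data, it was 0.506%. Without its most covered gene a class fell to 0.618% (inward rectifiers), 0.427% (tandem-pore), 0.119% (opened by calcium, sodium or pH) and 0.491% (auxiliary). With either replicate left out the classes ran from 0.505% to 0.874% (voltage-gated), 1.52% to 2.02% (inward rectifiers), 1.62% to 2.47% (tandem-pore), 1.51% to 2.53% (opened by calcium, sodium or pH) and 1.67% to 2.24% (auxiliary). In the pooled list inward rectifiers had 1.78% and auxiliary subunits 1.84%. The cause of these shifts was not tested.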
